A study of Mus musculus with 4 samples.

Results

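Imprinted genes are expressed mainly from the copy inherited from 1 parent, and 10 such loci were followed here through replication timing in fibroblasts grown from mouse embryos, cells of the connective tissue. A locus comprised all array probes whose midpoint lay within 100 kb of a fixed point on mouse build mm9, at Igf2, Kcnq1ot1, Snrpn, Peg3, Meg3, Igf2r, Gnas, Mest, Plagl1 and Peg10. This gave 165 probes of the 169660 usable ones on autosomes and X, after 2 of 167 were lost to quality flags, with 13 to 20 probes per locus. The array files carry positions and no gene names, so gene membership rests on these points alone. The window of each locus is given below on mm9.

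The series has 4 groups with 1 array each: control fibroblasts, a Suv4-20h knockout (KO) labelled as lacking the floxed SUV4-20H1 allele, and an inducible Suv4-20h mutant, non-induced and induced. All are labelled as the line MEF 362.2, while the protocols write 364.2. The protocol text gives 4-hydroxytamoxifen (1 mM, 24 hours) as the agent that deletes the allele and states no separate agent for the induced array. This entry is recorded alike for all 4 arrays, control and non-induced included, so it does not show which cells were exposed. New DNA was marked for 1 hour with BrdU (50 µM), a thymidine analogue, a sort of 80000 cells gave fractions of early and late S phase, and marked DNA of both was amplified and hybridised together. Timing is log2 of early over late signal, centred on the autosomal probe median of each array, and higher values stand for earlier replication.

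In an imprinted cluster, a control region carries DNA methylation on the copy from 1 parent, and this mark decides which copy each gene is expressed from. Copies of imprinted regions from mother and father are known to replicate at different times, the paternal one usually first. The arrays do not separate the copies, so each value below is an average over both. Suv4-20h enzymes methylate lysine 20 of histone H4.

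With 1 array per group there is no measure of culture spread, and conditions could not be tested against each other. Errors are standard errors (SE) over the probes of a locus, which cover variation along the DNA only. A locus counted as later or earlier, and is named called, where its difference between arrays reached 0.25 of the timing spread of the reference array, which is 0.45 on control and 0.52 on non-induced, and 3 times its SE. The timing spread runs from the 10th to the 90th percentile over 12000 windows of 200 kb, which also give the background, and was 1.81 for control, 2.31 for KO, 2.07 for non-induced and 2.70 for induced cells. These windows cover autosomes and X, while all 10 loci lie on autosomes, and the part of X in the window shares was not tested. Control and KO lay on 1 slide and the inducible pair on another. Of 122 probes on the Y chromosome, 106 stood well above background on the KO array and 41 to 53 on the others, so control and KO cells may differ in more than the deletion, and the part of this in the differences below was not tested.

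Promoters of 3 loci are shown because their genes start within regions methylated on the maternal copy, and because they cover the KO pattern: a locus called later, one called earlier and one not called. They are RefSeq sequences on build GRCm38.p6, from 250 bases before to 50 after a transcript start, with each CG dinucleotide, the site of DNA methylation, in capitals. Snrpn lies at chr7:60005150-60005449 on the minus strand, Kcnq1ot1 at chr7:143296498-143296797 on the minus strand, and Plagl1 at chr10:13090582-13090881 on the plus strand.
Snrpn: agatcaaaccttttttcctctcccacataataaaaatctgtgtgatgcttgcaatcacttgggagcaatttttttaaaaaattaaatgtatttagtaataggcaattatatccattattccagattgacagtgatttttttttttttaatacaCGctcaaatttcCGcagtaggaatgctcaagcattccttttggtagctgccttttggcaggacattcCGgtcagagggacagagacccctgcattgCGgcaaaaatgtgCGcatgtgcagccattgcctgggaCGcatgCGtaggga
Kcnq1ot1: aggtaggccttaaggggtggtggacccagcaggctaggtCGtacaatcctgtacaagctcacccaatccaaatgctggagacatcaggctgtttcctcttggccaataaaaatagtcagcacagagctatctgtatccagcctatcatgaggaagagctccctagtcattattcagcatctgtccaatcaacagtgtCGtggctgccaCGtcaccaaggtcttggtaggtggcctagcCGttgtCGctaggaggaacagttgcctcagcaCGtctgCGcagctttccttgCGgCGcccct
Plagl1: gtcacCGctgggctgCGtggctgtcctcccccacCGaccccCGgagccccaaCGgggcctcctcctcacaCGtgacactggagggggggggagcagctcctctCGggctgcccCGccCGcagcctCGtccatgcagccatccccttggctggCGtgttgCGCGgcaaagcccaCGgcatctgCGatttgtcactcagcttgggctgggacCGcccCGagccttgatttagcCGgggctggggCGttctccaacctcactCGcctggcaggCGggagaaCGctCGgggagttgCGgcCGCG
The Snrpn promoter, the one of its 4 entries richest in CG, held 7 CG, a number reached by 52.1% of all 32851 promoters of the table. Kcnq1ot1 held 9 (45.8% of promoters have as many) and Plagl1 held 26 (16.9%). CG was counted on 1 strand, since it reads the same on both. In all, 9 of the 10 loci had an entry. The promoters of Gnas reached 40 CG and that of Igf2r 34, which 3.91% and 7.73% of promoters reach.

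The 10 loci spread over most of the timing range of the genome. On every array, 6 loci lay above the autosomal probe median and 4 below it. Igf2, Kcnq1ot1, Plagl1, Mest and Igf2r were above it on all arrays, and Peg3, Gnas and Snrpn were below it on all of them. On the KO array alone, Peg10 lay below it (-0.28 ± 0.11) and Meg3 above it, the latter by less than its SE (0.02 ± 0.08). The median locus stood at 0.35 in control cells, 0.09 in KO cells, 0.61 in non-induced cells and 0.41 in induced cells, where the median window stood at -0.16, -0.39, -0.26 and -0.51. The lowest and highest loci were -0.66 and 0.84 in control, -1.38 and 0.97 in KO, -1.03 and 1.02 in non-induced, and -1.41 and 1.05 in induced cells.

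**Figure D1:**
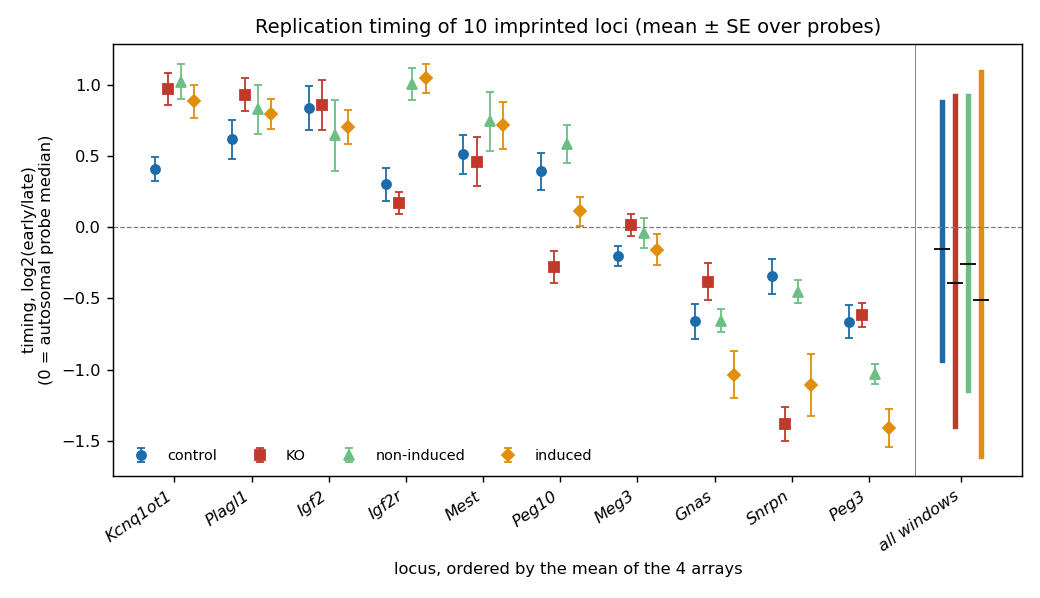
Timing (log2 of early over late signal) of the 10 loci on the control, KO, non-induced and induced arrays, as the mean and SE over probes, with vertical bars at the right for the 10th to 90th percentile and a dash for the median of all 200 kb windows on each array. Snrpn stands at -0.34 in control and -1.38 in KO cells, while Igf2, Mest and Plagl1 differ by 0.21 to 0.31 between their highest and lowest array.

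The growth factor pair is formed by Igf2, a paternally expressed growth factor, and Igf2r, the maternally expressed receptor that clears it from the cell surface. Igf2 (chromosome 7, 149740000 to 149940000, 13 probes) had timing of 0.84 ± 0.15 (SE) in control cells, 0.86 ± 0.17 in KO cells, 0.64 ± 0.25 in non-induced cells and 0.71 ± 0.12 in induced cells. It was early on all 4 arrays, at the 72.9th to 87.9th percentile of windows, and no array stood apart beyond the SE. Single probes of this locus were the most scattered of the 10 on the non-induced array, with an SD of 0.89. Igf2r (chromosome 17, 12820000 to 13020000, 20 probes) had 0.30 ± 0.12 in control cells, 0.17 ± 0.08 in KO cells, 1.00 ± 0.11 in non-induced cells and 1.05 ± 0.10 in induced cells. The arrays fell into pairs by slide, moderately early on one and early on the other, where it stood at the 94.1st (non-induced) and 87.5th (induced) percentile of windows.

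Of the loci named for long noncoding RNAs, one was early and the other in the middle of the range. Kcnq1ot1, a paternally expressed RNA that silences neighbouring genes in cis, lay on chromosome 7 (150340000 to 150540000, 18 probes), with its point 600 kb from that of Igf2. Its timing was 0.41 ± 0.08 in control cells, 0.97 ± 0.11 in KO cells, 1.02 ± 0.12 in non-induced cells and 0.88 ± 0.12 in induced cells. The control array stood below the other 3, which lay between 0.88 and 1.02. Meg3, a maternally expressed RNA beside Dlk1 (chromosome 12, 110690000 to 110890000, 15 probes), had -0.20 ± 0.07, 0.02 ± 0.08, -0.04 ± 0.10 and -0.16 ± 0.11 in control, KO, non-induced and induced cells. It kept a middle position, between the 48.1st and 57.7th percentile of windows, and its highest and lowest array were 0.22 apart.

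Gnas, a complex locus that encodes a subunit of the stimulatory G protein through which hormone receptors signal, was late to middle (chromosome 2, 174030000 to 174230000, 14 probes). It had -0.66 ± 0.12 in control cells, -0.38 ± 0.13 in KO cells, -0.66 ± 0.08 in non-induced cells and -1.03 ± 0.16 in induced cells. Its percentile among windows was 26.1 in control cells, 50.1 in KO cells, 33.6 in non-induced cells and 34.7 in induced cells. It lay on a slope: probes 200 to 600 kb to the left of the point averaged -0.16 in control and 0.01 in non-induced cells, and those as far to the right -0.71 and -1.45.

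The other members are paternally expressed protein-coding genes. Mest, which encodes a hydrolase-like protein (chromosome 6, 30590000 to 30790000, 16 probes), had 0.51 ± 0.14, 0.46 ± 0.17, 0.74 ± 0.21 and 0.72 ± 0.17 in control, KO, non-induced and induced cells. Its left 100 kb replicated earlier than its right on each array, with 0.74 against 0.22 in control and 0.91 against -0.12 in KO cells. The right part has 7 probes, and its outermost one, at -1.23, -1.03, -1.71 and -1.25 on the arrays in that order, adds to this contrast. Plagl1, a zinc finger transcription factor (chromosome 10, 12700000 to 12900000, 18 probes), had 0.62 ± 0.14, 0.93 ± 0.11, 0.83 ± 0.17 and 0.80 ± 0.11 in the same order, early on all arrays. Peg10, a gene derived from a retrotransposon (chromosome 6, 4600000 to 4800000, 15 probes), had 0.39 ± 0.13, -0.28 ± 0.11, 0.58 ± 0.13 and 0.11 ± 0.10. It was early in the control and non-induced arrays and lower in both of their counterparts.

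Snrpn and Peg3 were the members of this class that lay below the probe median on all arrays. Snrpn encodes a spliceosome protein and lies in the region linked to Prader-Willi syndrome in humans (chromosome 7, 67030000 to 67230000, 17 probes). Its timing was -0.34 ± 0.12 in control cells, -1.38 ± 0.12 in KO cells, -0.45 ± 0.08 in non-induced cells and -1.11 ± 0.22 in induced cells. The control and non-induced arrays lay near the 42nd percentile of windows (41.9 and 41.98), the induced one at 31.7 and the KO one at 10.4. Peg3, a zinc finger gene (chromosome 7, 6560000 to 6760000, 19 probes), had -0.66 ± 0.11 in control cells, -0.62 ± 0.08 in KO cells, -1.03 ± 0.07 in non-induced cells and -1.41 ± 0.14 in induced cells. Its percentile among windows was 26.0 in control cells, 44.9 in KO cells, 15.6 in non-induced cells and 18.1 in induced cells. Peg3 was the latest of the 10 on 3 arrays, although level with Gnas (-0.66) in control, and stood above Snrpn on the KO array by 0.76.

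Most neighbours in the order of levels were not separated by their SE. In control cells only the step from Igf2r to Meg3, of 0.50 or 3.72 times the combined SE, exceeded 2 combined SE. On the KO array it was the steps from Meg3 to Peg10 (0.29) and from Peg3 to Snrpn (0.76). On the non-induced array the steps from Peg10 to Meg3 (0.62), from Meg3 to Snrpn (0.42) and from Gnas to Peg3 (0.38) did so, and on the induced array those from Igf2 to Peg10 (0.59) and from Meg3 to Gnas (0.88). Probes within a locus had a median SD of 0.50 in control cells, 0.48 in KO cells, 0.51 in non-induced cells and 0.48 in induced cells, against 0.41, 0.50, 0.49 and 0.56 in all windows.

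The first comparison asks how timing at these loci differed between KO and control cells. Snrpn and Peg10 were called later and Kcnq1ot1 earlier in KO cells, and the remaining 7 were not called. Of all windows, 22.2% were called later and 8.02% earlier, so 2 and 1 of 10 are close to these shares. The median difference over the loci was 0.03, against -0.16 over all windows. With each array centred on its median window in place of its median probe, windows were called later in 10.6% and earlier in 17.9%, the median window difference was 0.08, and of the loci 1 was later and 3 earlier. Scaling all arrays to a common spread gave 13.7% of windows later and 6.37% earlier, removing a straight-line trend of the difference on timing gave 8.6% and 12.5%, and quantile normalization gave 9.48% and 9.22%.

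Snrpn had the lowest difference of the 10, -1.04 ± 0.14 (SE over 17 probes), and 5.66% of windows lay lower. All 17 probes were lower on the KO than on the control array. The early signal relative to its autosomal median went from -0.44 to -1.58, and the late signal from -0.12 to -0.27. The early channel was dim here, with 16 of 17 probes well above background in control and 12 in KO cells. Over the 9 probes that every array measured well above background, the difference was -0.91 ± 0.17. With normexp background correction of raw signals it was -0.40 ± 0.13, still called, since this correction narrows the timing spread and the size needed was 0.38. Around the locus, the adjoining 200 kb to the right was also called, at -0.88, and bins out to 2 Mb on either side ranged from -1.06 to 0.44. In this stretch only the bin 1200 kb to the left, at 0.44, stood above 0, so lower values in KO cells were not limited to the Snrpn window.

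Peg10 differed by -0.67 ± 0.10 (SE over 15 probes), with 14 of 15 probes lower in KO cells. Here the early signal was 0.78 in control and 0.76 in KO cells, while the late signal was 0.37 and 0.97. At the uncalled loci the early signal was higher in KO cells, by 0.14 (Gnas) to 0.53 (Plagl1). Their late signal was higher too, by 0.17 (Plagl1) to 0.52 (Mest), except at Meg3 (-0.05) and Gnas (-0.18). Channel values therefore do not show by themselves which channel set a locus apart. The call extended over 8 adjoining bins, 1600 kb from 3400000 to 5000000 on chromosome 6, with differences of -1.13 to -0.46. To the right of that stretch the direction turned: bins centred 600 and 800 kb from the point were called earlier in KO cells, by 0.67 and 1.23, and the second of these went from -0.79 to 0.44. Centred on the median window, the difference at Peg10 was -0.44 and was no longer called.

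Kcnq1ot1 differed by 0.57 ± 0.10 (SE over 18 probes), with 16 of 18 probes higher in KO cells, above 94.5% of windows. The early signal went from 0.16 to 0.68 and the late signal from -0.26 to -0.36. The uncalled loci Peg3 and Mest had a rise of the early signal of the same size, 0.52 at each. The call covered 400 kb, from 150140000 to 150540000 on chromosome 7. The non-induced array, without a stated deletion, differed from control at this locus by as much, 0.62 ± 0.14. Scaling the arrays to the same spread gave a KO difference of 0.43 and quantile normalization one of 0.54. Neither was called, since the size needed is set anew from the spread under each setting and was 0.56 under both.

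**Figure D2:**
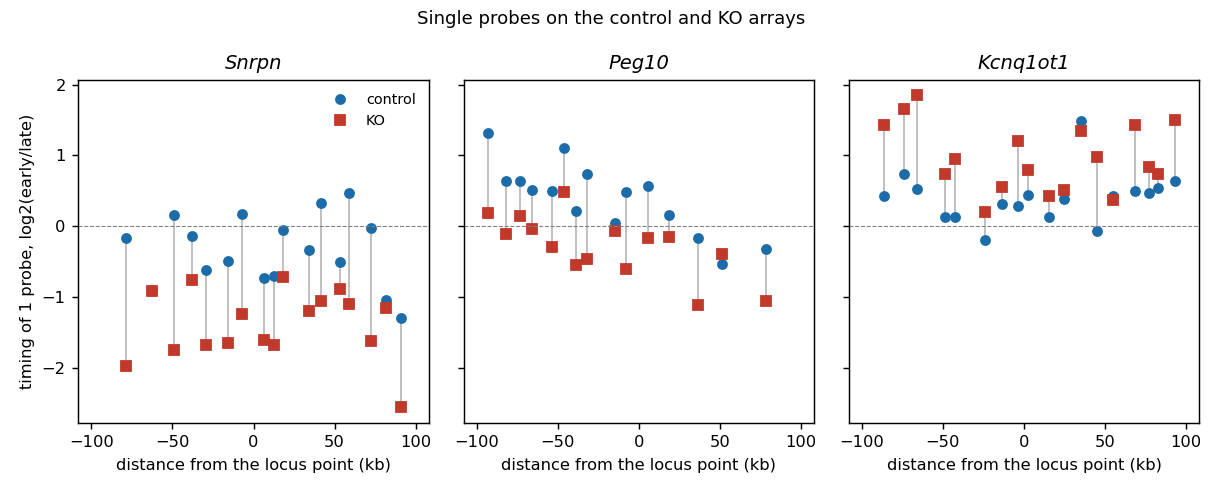
Timing of single probes (log2 of early over late signal) against distance from the locus point in kb, for control (circles) and KO (squares), with a grey line joining the values of a probe. At Snrpn all 17 KO values lie below the control values, at Peg10 14 of 15 do, and at Kcnq1ot1 16 of 18 lie above.

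The uncalled loci of this comparison ranged from -0.13 to 0.31. Plagl1, at 0.31 ± 0.14, and Gnas, at 0.28 ± 0.14, were nearest to a call. With the median over probes in place of the mean they stood at 0.57 and 0.48 and were called earlier. Meg3 differed by 0.22 ± 0.09, Peg3 by 0.04 ± 0.09, Igf2 by 0.02 ± 0.14, Mest by -0.05 ± 0.11 and Igf2r by -0.13 ± 0.09. Beside Meg3, probes 200 to 600 kb to the left stood at 0.0014 in control and -0.59 in KO cells, while the locus itself stood at -0.20 and 0.02.

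**Figure D3:**
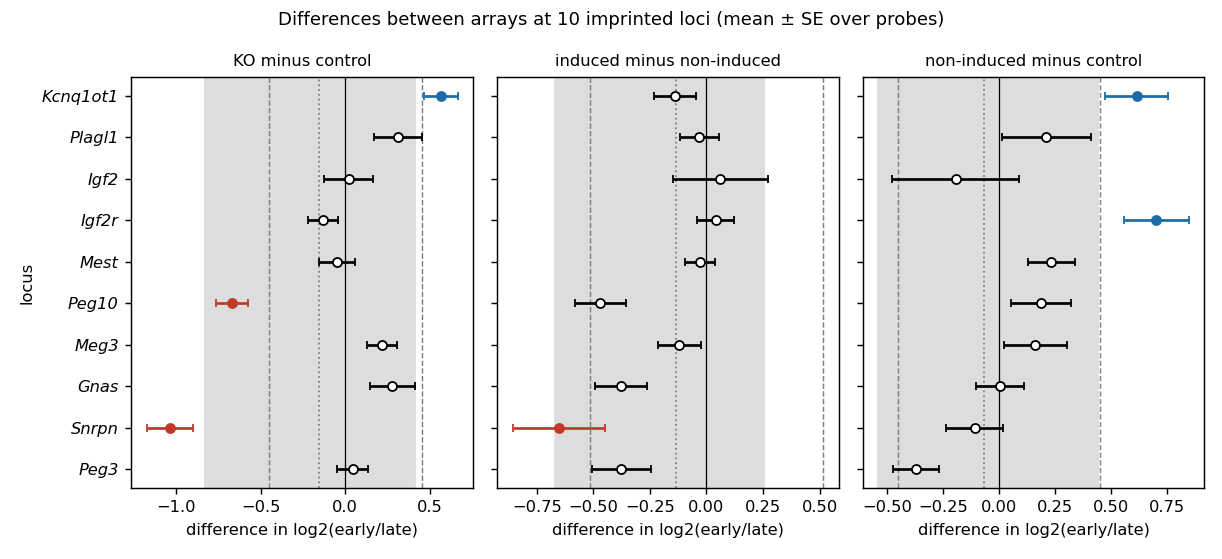
Differences in log2 of early over late signal for KO minus control, induced minus non-induced and non-induced minus control, as the mean and SE over probes of each locus, with filled points for called loci. Grey bands span the 10th to 90th percentile and dotted lines the median of all windows, and dashed lines mark the size needed for a call: Snrpn and Peg10 lie to the left of it for KO, and Kcnq1ot1 to the right.

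The second comparison asks how timing differed upon induction. Snrpn alone was called, as later, and no locus was called earlier, where 12.0% of windows were later and 0.467% earlier. The median over the loci was -0.13, and that over all windows -0.13. Window calls depended on the scale: 1.87% later and 0.0667% earlier under scaling to a common spread, 0.7% and 0.667% with the trend on timing removed, and 2.37% and 8.97% when centred on the median window, where the median window difference was 0.12. At Snrpn the difference was -0.65 ± 0.20 (SE over 17 probes), with 13 of 17 probes lower in induced cells. A single probe stood at -3.47 on the induced array, and 11 of 17 probes had an early signal well above background there, against 13 on the non-induced array. Restricted to the 9 probes that all arrays measured well above background, the difference was -0.31 ± 0.18, and normexp gave -0.12, neither of them called. The call held under 5 of 16 alternatives.

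Peg10 came next, at -0.47 ± 0.11 with 14 of 15 probes lower, short of the 0.52 needed. From non-induced to induced cells its late signal went from -0.05 to 0.21 and its early signal from 0.47 to 0.32. Over its 13 probes that all arrays measured well it was -0.53 ± 0.10 and was called later. Bins 400 and 600 kb to its left were called, at -0.60 and -0.71. Gnas and Peg3 each stood at -0.38, with SE of 0.12 and 0.13, and were not called. Scaling to the same spread gave -0.15 at Gnas and -0.05 at Peg3, and quantile normalization gave -0.08 and 0.05. The loci that were early on all arrays, Igf2, Kcnq1ot1, Igf2r, Mest and Plagl1, lay between -0.14 and 0.06, and Meg3 at -0.12 ± 0.09. The sign of such small differences turned with scaling or centring at several of them.

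**Figure D4:**
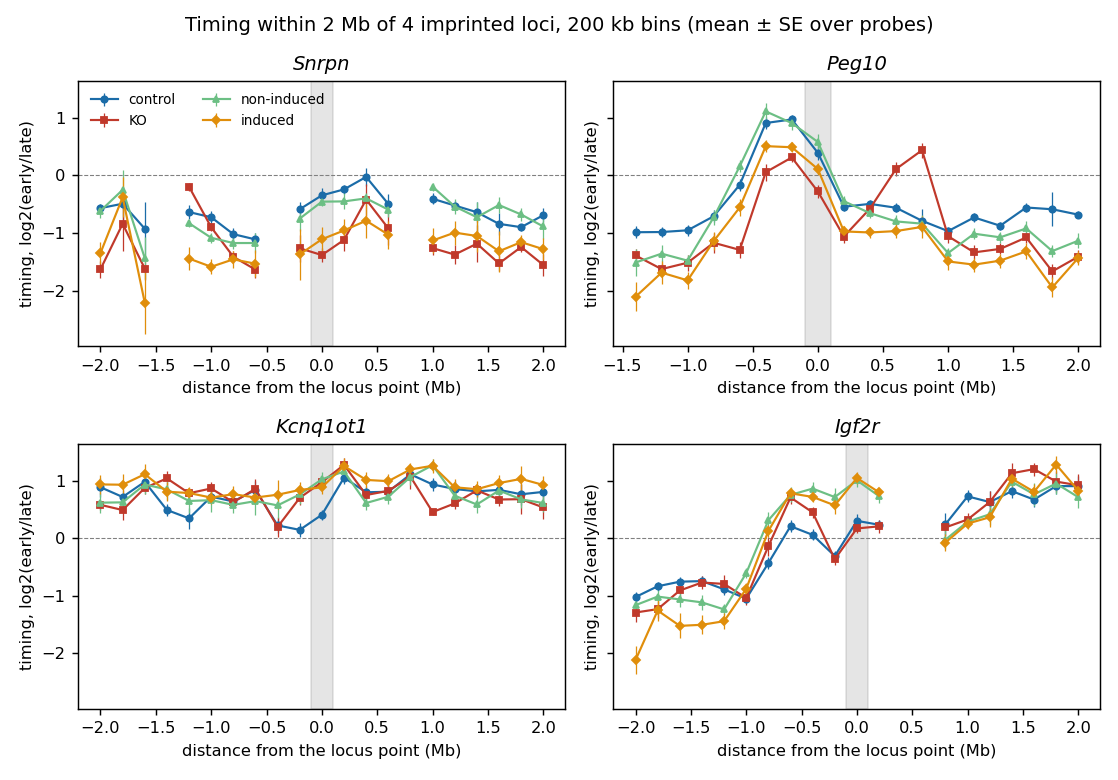
Timing (log2 of early over late signal) in 200 kb bins within 2 Mb of the points of Snrpn, Peg10, Kcnq1ot1 and Igf2r on the 4 arrays, as the mean and SE over probes, with the locus shaded and bins under 5 probes left out. KO lies below control over the early peak at Peg10 and above it 0.8 Mb to the right, control lies below the other 3 arrays at Kcnq1ot1, and the inducible pair lies above control and KO at Igf2r.

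The third comparison sets the non-induced against the control array, the references of the other 2. The cells and the slide both differ here and cannot be told apart, and the control array is shared with the KO comparison. Igf2r and Kcnq1ot1 were called earlier in non-induced cells and none of the 10 later, where 8.17% of windows were earlier and 10.9% later. Earlier and later windows made up 7.14% and 7.93% under scaling to a common spread, 9.5% and 6.86% with the trend on timing removed, 7.82% and 6.95% after quantile normalization, and 12.0% and 6.72% when centred on the median window. Igf2r differed by 0.70 ± 0.15 (SE over 20 probes), above 97.0% of windows, and 16 of 20 probes were higher. The call at Igf2r covered 6 adjoining bins, 1200 kb from 12020000 to 13220000 on chromosome 17, with differences of 0.50 to 1.02. Kcnq1ot1 differed by 0.62 ± 0.14, with a range of 0.21 to 1.02 over the alternatives. Its call was lost in 4 of 16, namely quantile normalization, a window of 250 kb on each side, a threshold of 0.35 and even probes alone, which gave 0.21. Peg3 was lowest, at -0.37 ± 0.10, and was not called. Snrpn (-0.11 ± 0.13) and Peg10 (0.19 ± 0.14), the loci called later in KO cells, were not called between the references. Nor were Igf2 (-0.19 ± 0.28), Meg3 (0.16 ± 0.14), Gnas (0.0040 ± 0.11), Mest (0.23 ± 0.11) and Plagl1 (0.21 ± 0.20).

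A further 14 imprinted loci, placed from general knowledge of mm9 and not from the files, were measured the same way. A fifteenth, Ube3a, was left out because its distance from Ndn differed by 109 kb from that in the RefSeq gene table. Ndn shares this gap and was kept because its median gap was smaller, 49.4 kb against 69 kb for Ube3a. That median was taken over the other points of the chromosome, Snrpn aside. In KO against control cells 1 of these was called later and 2 earlier, against 22.2% and 8.02% of windows, and the median difference was 0.17, against -0.16 over windows. The later one was Ndn, a growth suppressor gene that neighbours Snrpn in the gene table (chromosome 7, 69390000 to 69590000), with -0.58 ± 0.12 in control cells, -1.32 ± 0.17 in KO cells, -0.56 ± 0.12 in non-induced cells and -1.07 ± 0.23 in induced cells. Its KO difference was -0.74 ± 0.12 (SE over 14 probes).

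The loci called earlier in KO cells were Grb10 and Rasgrf1. Grb10, an adaptor of insulin signalling (chromosome 11, 11830000 to 12030000, 14 probes), had 0.23 ± 0.10 in control cells, 1.09 ± 0.14 in KO cells, 0.21 ± 0.09 in non-induced cells and -0.14 ± 0.14 in induced cells, so that the KO array alone stood high. Rasgrf1, an activator of Ras (chromosome 9, 89760000 to 89960000, 17 probes), had -0.88 ± 0.10, -0.14 ± 0.12, -0.56 ± 0.05 and -0.73 ± 0.08 in the same order. None of the 14 was called between induced and non-induced cells, where 12.0% of windows were later and 0.467% earlier, or between the references, where 10.9% were later and 8.17% earlier. By the mean of the arrays, Cdkn1c was the earliest at 1.19 and Nap1l5 the latest at -0.97. H19 shares 10 probes with Igf2, and Dlk1 shares 7 with Meg3, so these are not separate measurements.

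**Figure D5:**
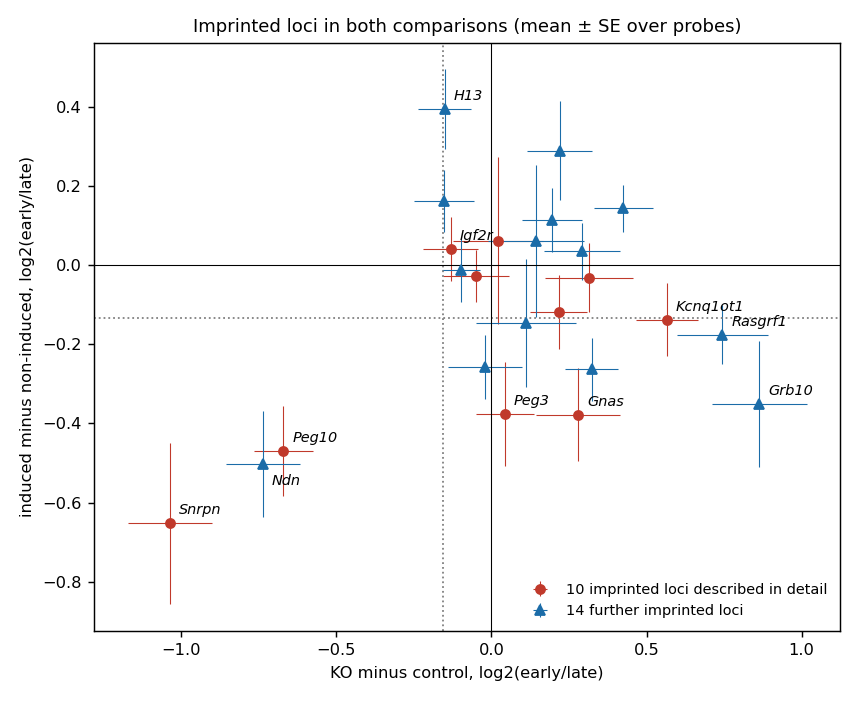
Induced minus non-induced against KO minus control timing (differences in log2 of early over late signal, mean and SE over probes) for the 10 imprinted loci (circles) and 14 further ones (triangles), with dotted lines at the median of all windows. Snrpn, Peg10 and Ndn have the lowest values on both axes, at -1.04, -0.67 and -0.74 for KO, while Grb10 and Rasgrf1 lie at 0.86 and 0.74 for KO and at -0.35 and -0.18 for induced cells.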

How the data were processed

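Each of 4 arrays of 2 colours held early S phase DNA in Cy3 and late S phase DNA in Cy5, per the labels, with no dye swap. Per the file headers, the deposited signals are intensity values from Agilent Feature Extraction 11.5.1.1 on build mm9, background-subtracted and dye-normalized (the submitters' processing notes name 9.1). The deposited log10 ratios are late over early and equal the deposited value table in all 180880 spots of each array. Spot flags deposited beside them, with values of 0 or 1, gave quality. Timing was log2 of early over late processed signal. Spots that were controls or flagged (154 to 447 an array) were removed, repeat spots averaged and arrays centred on the autosomal median, with no loess or quantile step. Median signal above background was 109 to 174 in the early and 230.1 to 417 in the late channel. Having 1 array in each group limits the precision.

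Windows of 200 kb needed at least 5 probes. Where a chromosome held several points, the distance of each to the nearest point other than Snrpn was set against the RefSeq table of GRCm38.p6. It differed by at most 57.4 kb, except for Ube3a, Ndn, Snrpn (336.5 kb) and Peg3 (7307 kb). For Snrpn and Peg3 this nearest point was Ube3a, which was dropped, and their medians over the other points were 274.1 and 7242 kb. Listed starts of Snrpn run from 60005150 to 60450427 there. The Peg3 promoter lies at 6730370 there, within the bounds of its mm9 window, while that of Kcnq1ot1, at 143296498, lies below its own. All members were kept. The calling step was checked on simulated data with the same underlying timing on every array, apart from planted changes, and independent noise for each probe. That check does not cover differences of scale between arrays or culture spread. Members and lists were chosen with earlier results of these data known. Text names all 10 members, and of the further loci those called for KO or induced cells and the earliest and latest. Alternatives covered scaling, centring, background correction (normexp, offset 50, on raw median signals), loess, the value table, dim and flagged spots, locus width, medians, odd or even probes, trend and threshold. Tools were Python 3.11.15, numpy 2.4.6, pandas 2.3.3, R 4.3.3 and limma 3.58.1.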

Additional observations from a re-analysis of the deposited data

How the results depend on the processing

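Over 16 alternatives, Snrpn stayed called later in KO cells in all (-1.25 to -0.40), Peg10 in 15 (-0.79 to -0.44), Kcnq1ot1 stayed earlier in 13 (0.42 to 0.80) and, in non-induced cells, Igf2r earlier in 15 (0.55 to 0.80) and Kcnq1ot1 in 12 (0.21 to 1.02). No called locus changed sign. The induced call at Snrpn (-0.73 to -0.12) was lost, leaving 0 later loci, with scaling to the same spread, quantile normalization, median window centring, normexp, loess, medians over probes, trend removal and a threshold of 0.35; with well measured probes, where Peg10 was called, with windows of 50 kb on each side, where Gnas was, and with even probes, where Peg10 was, Snrpn was lost too. At a threshold of 0.15 the later loci were 3 for induced cells (19.2% of windows) and 1 for non-induced cells (15.5% of windows). Even probes also gave 1 later locus for non-induced cells. Loci earlier in KO numbered 0 with scaling, quantile normalization and a threshold of 0.35 (4.04% of windows). They numbered 3 with median window centring and with medians over probes, and 2 with the trend removed. Those later in KO numbered 1 with median window centring. Loci earlier in non-induced cells numbered 1 with quantile normalization, windows of 50 and of 250 kb on each side and even probes. The same number was found at a threshold of 0.35 (4.07% of windows). Window shares were not computed for other locus widths, medians over probes, or odd or even probes, so those counts have no background. The median KO difference was 0.27 with median window centring, 0.18 with loess and 0.17 over odd probes, and the median induced difference was 0.12 with median window centring. Median levels were 0.50, 0.48, 0.87 and 0.92 in control, KO, non-induced and induced cells with median window centring, 0.45 and 0.20 in the latter pair with normexp, 0.26 in induced cells over well measured probes, and 0.22 in control cells with 250 kb on each side. Median window centring subtracts the median window, which was -0.16, -0.39, -0.26 and -0.51 in control, KO, non-induced and induced cells. This sets the shifts of levels and differences under that setting. The cause of the other shifts was not tested. No paired analysis was possible because each group has 1 array. Dim early signal limits what Snrpn can show, and replicate arrays, which would measure culture spread, were not analysed here.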

Other observations

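Within 2 Mb of Gnas, bins on the left were called earlier in KO than in control cells although the locus itself was not. Of all windows, 8.02% were called earlier in this comparison, and the bins given here were picked from the stretch. The bin centred 1800 kb to the left went from -0.66 in control to 0.73 in KO cells, and the one 1400 kb to the left from -0.21 to 0.88, while non-induced cells stood at -0.87 and -0.77. On the right, the bin 400 kb away differed between the references instead, at -0.67 in control and -1.47 in non-induced cells.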
